A study of Mus musculus with 44 samples.

Results

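The regions described here are 1212 stretches of open chromatin away from gene starts that gave more signal in cells labelled GFP than in cells labelled nonGFP, both from GTML medulloblastoma. They were chosen by 3 values in a table of 88258 regions: a distance of more than 1000 bases to the nearer of the named gene starts (75050 regions), a mean signal of at least 5 CPM (reads scaled so that every library has the same total) over 4 libraries (29570 of those), and a mean GFP signal at least 1.5 times the mean nonGFP signal. The 1212 were 4.1% of the 29570 distal regions at that level, and 487 of the 29570 were lower in GFP by the same ratio. Because the GFP to nonGFP ratio chose the regions, it is given below as a description with no test.

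The study measured open chromatin (ATAC-seq, in which a transposase inserts adapters where DNA is accessible), bulk RNA and single-cell RNA in medulloblastoma, a cerebellar tumor, of the mouse. In GTML tumors a MYCN transgene answers to a tetracycline-regulated activator that is driven from Glt1 (Slc1a2), and GTS tumors come from a related model in which an activator is driven from Sox9. Open chromatin was read in duplicate in the GFP and nonGFP cells, in the line GTML3 and the line labelled preGTS1, each given DMSO or DOX (doxycycline), and in sources labelled GTS1 and GTS2. RNA was read in 8 GTML and 6 GTS tumors, in 3 samples of each line under DMSO and under DOX, and in a single-cell library of GTML cells whose title names SOX9 and GFP. The labels do not say what GFP marks in the ATAC libraries. GTML3, preGTS1, GTS1 and GTS2 are each a single named line or source, and the MYCN transgene is common to both tumor models. Ages of the animals are not given in the sources used here.

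The GFP and nonGFP libraries held 8.964 to 14.954 M reads in the listed regions, and the libraries of the lines and GTS sources 0.827 to 7.773 M, lowest in GTML3 under DOX. The chi-square between duplicates was 1.85 to 2.06 per degree of freedom in all 8 ATAC groups, where reads drawn independently would give 1. The labels do not say that duplicates came from separate cultures or animals, so each pair was averaged and treated as 1 sample. ATAC differences are therefore differences between single samples, with no measure of biological spread. Both libraries are given for many of the named regions but not for all. As a check of the labels, Mycn RNA fell under DOX by 3.59 on the log2 scale in GTML3 (SE 0.15, adjusted p = 6.72e-11) and by 4.86 in preGTS1 (SE 0.15, adjusted p = 2.22e-12, limma with Benjamini-Hochberg adjustment, 3 samples per group).

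Distal open regions are often enhancers, stretches bound by transcription factors that raise transcription from a gene start that can lie far away, and the nearest gene is a common but imperfect guess at the target. Sox9 encodes a transcription factor of the high-mobility-group family that marks neural stem cells and astroglia in the cerebellum and is known for a very long gene-poor stretch of enhancers around it. Open chromatin at such sites shows that DNA is accessible, not that a gene is on.

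Gene starts of microRNAs, short RNAs that silence messages matching their seed, were among the nearest genes. Of the 1020 genes nearest to a member region, 14 were microRNA genes. The share of microRNA genes over all tested distal regions was not counted, so these 14 are given with no background. The mature sequences of 4 of them are printed because their regions recur below; sequences are from RefSeq (GRCm38.p6), and capitals mark the seed, bases 2 to 8.
mmu-miR-181a-5p: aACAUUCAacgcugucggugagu
mmu-miR-181c-5p: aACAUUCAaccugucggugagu
mmu-miR-9-5p: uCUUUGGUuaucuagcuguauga
mmu-miR-137-3p: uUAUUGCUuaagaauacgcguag
The first and the second share a seed, while miR-9-5p and miR-137-3p, both known in neural progenitors and neurons, each have their own.

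Of the protein-coding genes with most member regions, Cdh20, which encodes a cadherin (a cell adhesion molecule), was the only one besides Sox9 whose own start region passed the ratio as well. The 250 bases before the Cdh20 start (RefSeq, GRCm38.p6, chr1:104768270-104768519, plus strand) are shown for that reason.
Cdh20: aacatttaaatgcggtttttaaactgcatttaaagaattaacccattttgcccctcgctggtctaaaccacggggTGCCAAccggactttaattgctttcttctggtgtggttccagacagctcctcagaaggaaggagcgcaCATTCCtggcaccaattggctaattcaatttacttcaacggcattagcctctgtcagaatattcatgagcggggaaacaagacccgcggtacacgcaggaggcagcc
Capitals mark, on the printed strand, 1 match of the nuclear factor I half-site TTGGCA and 1 match of the TEAD motif GGAATG, both on the opposite strand. Of 32851 promoters, 12.3% and 12.6% held these motifs. Searched on both strands without a match here were TGANTCA (AP-1), ACAATG (SOX), ACAAAG (a shorter SOX motif), CAGCTG (an E-box), CAGATG (a neurogenic E-box), CACGTG (the MYC E-box), TAATCC (OTX), CCGGAAG (ETS), GTTGCNA (RFX), GGGCGG (KLF and SP), TAATTA (homeodomain), TTGCNNAA (CEBP) and TGGGAA (RBPJ). No pair of them overlapped in the stretch shown. A match of letters is a description and shows no binding.

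Sox9 had more member regions than any other gene: 14 of its 17 distal regions at the level minimum (82.4%) were members, against 4.1% of all such regions. All coordinates of regions are mm9. The most open of them, at chr11:112700911-112702325 and 58.1 kb from the Sox9 start, read 294 and 274 CPM in the GFP libraries and 190 and 171 CPM in the nonGFP libraries, a ratio of 1.57. The region at chr11:112672312-112674365, 29.8 kb away, read 216 and 218 CPM against 139 and 138, a ratio of 1.57. Both GFP libraries stood above both nonGFP libraries in each, which the rule largely fixes, and all 4 libraries were far above the 5 CPM minimum.

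The region at chr11:112662476-112664437 read 175 and 173 CPM in GFP against 95.4 and 92.8 in nonGFP, a ratio of 1.85. A neighbour at chr11:112687451-112688548 read 144 and 131 CPM against 73.6 and 77.8, a ratio of 1.81. The smallest ratio among the 14 was 1.54, at chr11:112681182-112682266. The largest ratio, 2.58, was at a weakly open region 130 kb away, chr11:112773642-112774034, with 7.92 and 6.86 CPM in GFP against 3.00 and 2.74.

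The Sox9 start region itself, chr11:112642514-112644480, is no distal region and so no member, and read 184 and 181 CPM in GFP against 101 and 101 in nonGFP, a ratio of 1.80. Counting from that start, all 17 regions of at least 5 CPM within 150 kb that name Sox9 as either neighbouring gene had a ratio of at least 1.5 (1.54 to 3.04, median 1.85). Beyond 150 kb only 1 of 13 did (0.798 to 1.68, median 1.15). The highest ratio in the window, 3.04, was at chr11:112585303-112585950, 57.9 kb upstream, whose nearest named gene was BC006965, with 32.4 and 30.9 CPM in GFP against 10.5 and 10.2. At this level the raised signal therefore ran over start and distal regions alike and ended between 130 kb and 178 kb downstream, where a region at chr11:112820729-112821720 had a ratio of 1.26. A read count over a region holds both the number of DNA copies and how open they are, and these cannot be told apart in these tables.

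**Figure D1:**
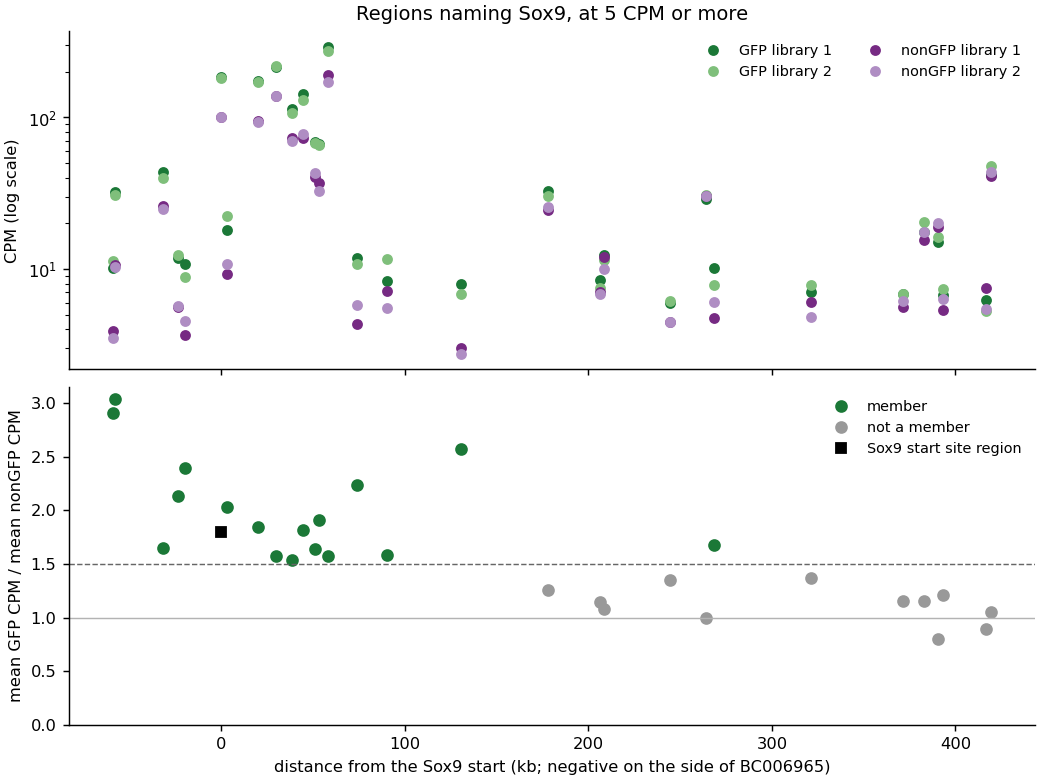
Signal of the 4 libraries in CPM (upper panel) and the GFP to nonGFP ratio (lower panel) of each region against distance from the Sox9 start in kb, with member regions in green, the start region as a black square and the 1.5 ratio as a dashed line. Every region of at least 5 CPM within 150 kb lies on or above the line, while beyond 150 kb the ratios run from 0.798 to 1.68, with 1 of 13 regions above it.

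Sox9 also stood apart by level. Of the 780 distal regions with a mean of at least 50 CPM, 7 were members and all 7 lay nearest Sox9, and the highest ratio among the distal regions of that level that were no members was 1.33. At 100 CPM or more, 4 of 73 were members, again all nearest Sox9, and no region of that level outside the members exceeded 1.2. Over all 1212 members the median level was 6.94 CPM, against 9.74 CPM for all 29570 tested distal regions, so most members were weakly open, and 41 of 5727 distal regions of at least 20 CPM (0.716%) were members.

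**Figure D2:**
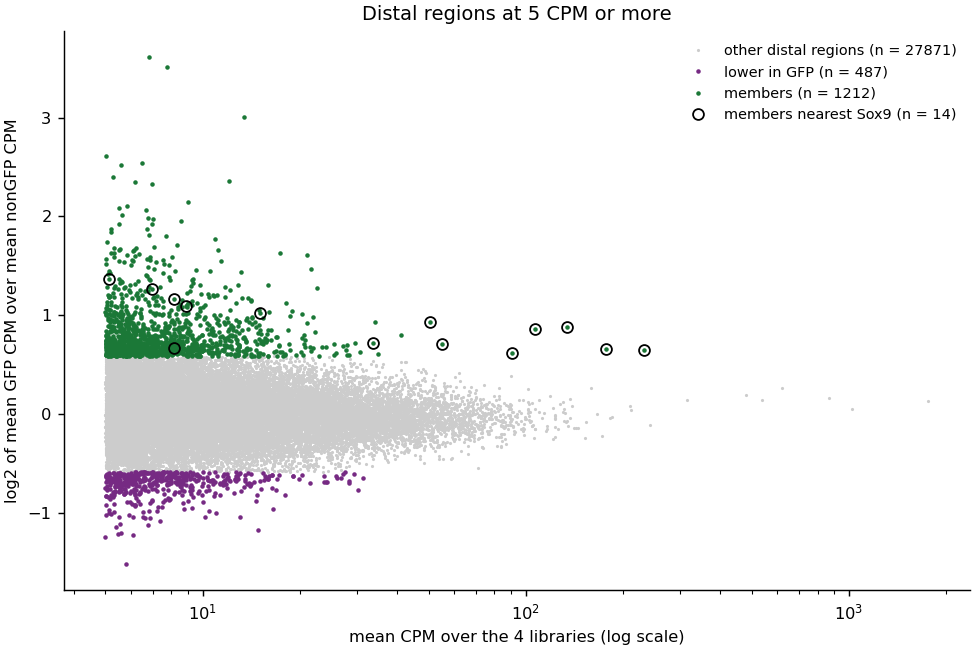
Log2 ratio of GFP to nonGFP signal against mean CPM (log axis) for distal regions of at least 5 CPM, with the 1212 members, the 487 regions lower in GFP, and the 14 members nearest Sox9 circled. The circled points are the only members at 50 CPM or more.

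Among the members the ratio ran from 1.5 to 12.3 with a median of 1.66; 229 were at 2 or more, 46 at 3 or more and 10 at 5 or more. Both GFP libraries were above both nonGFP libraries in 1202 of the 1212 (99.2%), a share that the rule largely fixes. Over all tested distal regions the share was 26.7%. The members just inside the ratio limit lay near Zbtb41 (1.50015) and Gpr39 (1.5007), and the regions just outside near Uox (1.49961) and Nek6 (1.49976). Just inside the level limit were regions near 4930524O08Rik (5.00089 CPM) and Fat3 (5.00461 CPM), and just outside were Tbxas1 (4.9958 CPM) and Gm6639 (4.99673 CPM). Just inside the distance limit were Elmo1 (1035 bases) and Oscp1 (1138 bases), and just outside 2610203C22Rik (972 bases) and Rxfp3 (981 bases). Values on either side of each limit were thus nearly equal.

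The highest ratios included regions far from gene starts, but those nearest 4930545E07Rik and Mtmr2 lay 13.9 and 16.6 kb away. Plekhb2, which encodes a pleckstrin homology domain protein, was nearest to chr1:35172259-35172992, 266 kb away, with 14.3 and 11.0 CPM in GFP against 1.26 and 0.802 in nonGFP, a ratio of 12.3. Has2as, the antisense RNA of hyaluronan synthase 2, was nearest to chr15:56252149-56252824, with 16.0 and 12.5 CPM against 1.55 and 0.936, a ratio of 11.4. E130114P18Rik was nearest to chr4:97132341-97133210, with 26.1 and 21.5 CPM against 2.32 and 3.61, a ratio of 8.03. In each of these the nonGFP signal was below the 5 CPM minimum and the GFP signal was not.

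Further down that order, Gmnn, whose product geminin blocks re-licensing of replication origins, was nearest to a region with a ratio of 5.75 (chr13:24801597-24802245; 9.93 and 9.05 CPM against 2.03 and 1.27). Sel1l, a component of the degradation machinery of the endoplasmic reticulum, had 18.6 and 21.7 CPM against 3.29 and 4.55 at chr12:93150940-93151845, a ratio of 5.14. Mtmr2, a phosphoinositide phosphatase, had 10.9 and 12.2 CPM against 2.42 and 2.21 at chr9:13569892-13570590, a ratio of 5.01. The remaining 6 of the 12 highest, 1 per gene, lay nearest G630055G22Rik (6.11), 4930545E07Rik (5.81), the nuclear receptor gene Hnf4g (5.29), the ubiquitin ligase gene Nedd4l (5.11), the scaffold gene Pdlim5 (4.42) and the adaptor gene Nck2 (4.30). None of the 12 shared a nearest gene with the fixed lists of cell type markers and pathways.

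The 1212 members named 1020 nearest genes, of which 144 had at least 2 and 28 at least 3. After Sox9 came Cdh20 with 6 of 19 tested regions (ratios 1.55 to 1.72), Dsel, encoding a dermatan sulfate epimerase-like protein, with 5 of 17 (1.58 to 2.0), and Nabp1, encoding a single-stranded DNA binding protein, with 4 of 14 (1.60 to 3.96). Gm10440 had 4 of 10, Gm1653 4 of 18, 4930590L20Rik 4 of 11 and E130114P18Rik 3 of 9. The start region of Cdh20 read 20.2 and 18.0 CPM in GFP against 10.6 and 9.23 in nonGFP, a ratio of 1.92. The start regions of Dsel and Nabp1, at 1.11 and 1.12, were near even. At the starts of member genes in general the difference was small: the 638 start regions of 611 member genes had a median log2 ratio of 0.03, against -0.04 for all 11636 start regions of at least 5 CPM, and 12 of the 638 reached 1.5 where 0.636% of all start regions did.

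Members that were adjacent in the list of tested distal regions formed 98 runs of 2 or more, holding 228 members, and 15 runs of 3 or more. The longest run was that around Sox9, 17 members in succession from chr11:112571185 to 112774034. Members lay farther from genes than tested distal regions did, with a median distance of 57.7 kb against 36.1 kb, and 34.5% of members lay over 100 kb away against 25.7% of tested regions. Their median width was 654 bases, against 703 bases for the tested regions.

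Members were unevenly spread over chromosomes. Chromosome 1 held 225 members, 7.40% of its 3042 tested distal regions, while the other chromosomes together had 987 of 26528 (3.72%). The share was 6.10% on chromosome 3, 5.96% on chromosome 4 and lowest, 2.26%, on chromosome 7. On chromosome 1 all regions were shifted, not members alone: the median log2 ratio was 0.15 over tested distal regions and 0.09 over start regions. The shift covered the first 170 Mb (median 0.18, 208 members of 2495) and was near 0 in the rest (median 0.02, 17 members of 547). Cdh20, Dsel, Nabp1 and 4930590L20Rik, 4 of the 8 genes with most members, lie on the shifted stretch, and the part that this shift plays in their ratios was not tested.

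**Figure D3:**
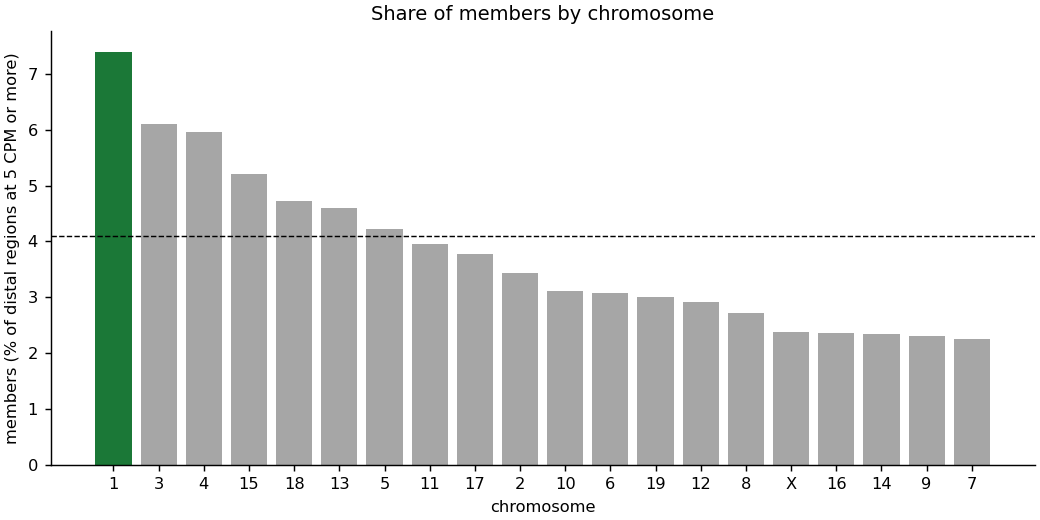
Percent of tested distal regions that were members, by chromosome, with the value over all chromosomes, 4.10%, as a dashed line. Chromosome 1 is highest at 7.40% and chromosome 7 lowest at 2.26%.

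Genes were grouped by lists of cell type markers and pathways. Of 133 tested distal regions nearest genes of an astroglial list that includes Sox9, 24 were members (18.0%), and without Sox9 10 of 116 were (8.62%), against 4.1% of all. Beside Sox9 they lay nearest Tnc (3 regions), encoding the matrix protein tenascin C, Nfia and Nfib (2 each), encoding nuclear factor I proteins that direct glial development, Slc4a4 (2), a bicarbonate transporter gene, and Slc1a3 (1), a glial glutamate transporter gene. The strongest of these, 235 kb from Nfia at chr4:97678992-97679417, read 8.59 and 7.57 CPM in GFP against 3.87 and 3.14 in nonGFP, a ratio of 2.30. The Tnc regions had ratios of 1.63 to 1.67, and the Nfib regions 1.67 and 1.51. In none of these regions did GFP and nonGFP libraries overlap, which the rule largely fixes.

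Of the other lists, the ependymal and choroid (10.3%), photoreceptor (6.45%) and AP-1 (6.06%) lists had shares above that of all regions, on 4, 2 and 2 members. The 4 of the ependymal and choroid list were among 39 tested regions, with them a region 13.4 kb from the prolactin receptor gene Prlr (8.92 and 7.41 CPM against 2.13 and 2.34, ratio 3.66), 1 near Rfx3, a regulator of cilia genes (20.1 and 18.7 CPM against 10.7 and 10.8, ratio 1.80) and 2 near Dynlrb2 (highest ratio 1.60). Granule neuron precursor and sonic hedgehog genes had 4 of 101, among them regions near the hedgehog effector Gli2 (1.77 and 1.56) and near Atoh1. The TGF-beta and BMP list had 4 of 118, near the receptor genes Acvr2a (1.72 and 1.65), Acvr1 (1.57) and Bmpr1b. Arrest and quiescence genes had 2 of 83, both near the antiproliferative gene Btg1 (3.09 and 1.90).

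AP-1 genes had 2 of 33 (Jun 1.75, Fosb 1.57) and photoreceptor genes 2 of 31, both near Impg1 (1.77 and 1.64). Neuronal genes had 3 of 193 (Syt1 1.76, Map2 1.51, Neurod1 1.51) and 7 lower in GFP. The Notch, microglia, endothelial and oligodendrocyte lists had 1 each, near Notch2 (1.70), Ptprc (1.65), Foxc1 (1.73) and Opalin (1.68). No member lay nearest a gene of the MYC network list (35 tested regions) or of the T cell and blood list (6 tested regions).

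The microRNA regions had ratios of 1.55 to 2.33, where the median over all members was 1.66. The region nearest Mir181a-1 (chr1:139553417-139554171, 309 kb away) read 23.9 and 25.8 CPM in GFP against 10.8 and 11.9 in nonGFP, a ratio of 2.19. The region 13.2 kb from Mir181c, which shares its 5p seed, read 10.3 and 9.05 CPM against 5.61 and 6.15 (chr8:86715751-86716350, ratio 1.64). The region 20.9 kb from Mir9-3 read 12.4 and 12.0 CPM against 5.03 and 6.35 (chr7:86670598-86671582, ratio 2.14). Mir137 had 2 members, at 1.61 and 1.56. GFP and nonGFP libraries did not overlap at any of them, which the rule largely fixes. These microRNA regions were chosen after their values were seen.

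The second ATAC table, of GTML3, preGTS1, GTS1 and GTS2, was normalized apart from the first, so levels are compared only within it. Of the 1212 members, 631 overlapped a region of that table by at least 1 base (52.1%), as did 56.2% of all tested distal regions and 32.2% of the regions lower in GFP. Over the 631, the median level was 11.4 CPM in GTS2 and 1.24 to 1.73 CPM in the other 5 conditions. Over all 16554 shared regions the same medians were 9.35 and 2.67 to 3.56 CPM, and over the 157 shared regions lower in GFP they were 3.74 and 1.76 to 3.03 CPM. GTS2 was the highest condition in 423 of the 631 (67.0%), in 50.1% of all shared regions and in 36.3% of the regions lower in GFP.

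**Figure D4:**
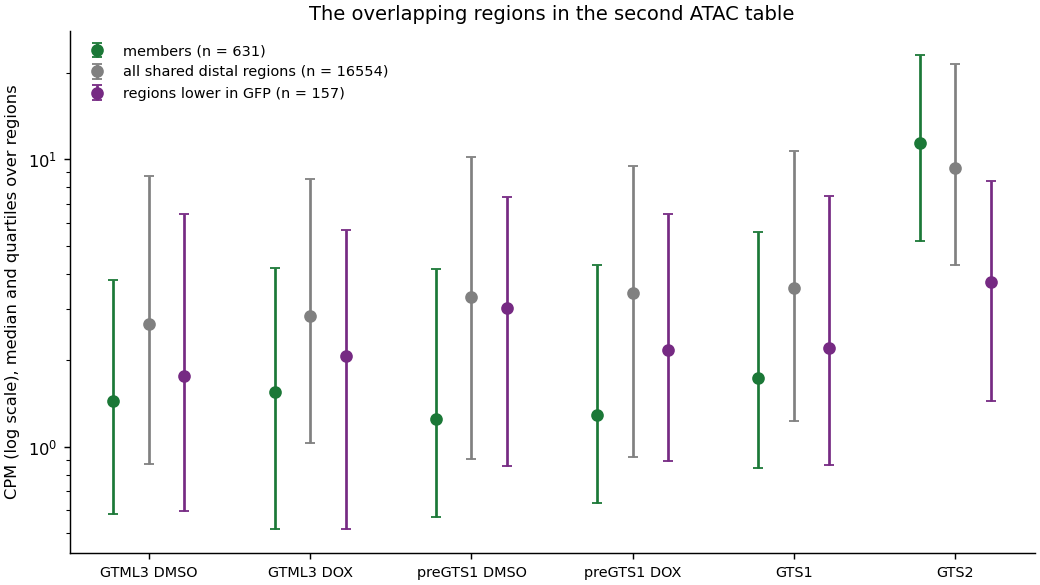
Median and quartile CPM of shared regions in the 6 conditions of the second ATAC table, for 631 members, all 16554 shared distal regions and 157 regions lower in GFP. The members are highest in GTS2, at 11.4 CPM, and between 1.24 and 1.73 CPM elsewhere.

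Of the 631, 284 had a mean of at least 5 CPM over that table, and 2-fold differences were counted among them beside the share of all 8907 shared distal regions at that level. The mean includes the libraries of every condition, so a region can pass through GTS2 or GTS1 alone. The region near Gmnn passed through GTS2, at 27.8 and 38.0 CPM there and at most 2.88 CPM elsewhere. The GTS2 and GTS1 counts, and the regions that lead them, are therefore not independent of the filter. GTS2, GTS1 and preGTS1 were each set against GTML3 under DMSO, so these 3 comparisons share their control libraries. In GTS2, 185 of 284 were higher and 46 lower, against a background of 39.6% and 19.3%, and the median log2 difference was 2.44, against 0.39 over all 8907. The median over the 56 regions lower in GFP was -1.46. In GTS1, 101 were higher and 55 lower, against 28.4% and 19.5%. In preGTS1 under DMSO, 71 were higher and 42 lower, against 20.4% and 12.5%. The members' shares are thus 65.1%, 35.6% and 25% higher in the 3 comparisons. With limma on both libraries as replicates, 60.6% of members were higher in GTS2, against 38.4% of all. By that test the members' shares were at the background in GTS1 (21.5% against 21.9%) and in preGTS1 (12.0% of each). With edgeR they were 60.9% against 40.5% in GTS2, 24.6% against 29.1% in GTS1 and 16.2% against 17.9% in preGTS1, so the excess in GTS1 and preGTS1 was seen in the counts past a fold and not with either test. The GTS2 median depended on the level: over the 116 members with a mean of at least 10 CPM it was 0.47, against 0.09 over all 4744, and 47.4% were higher, against 29.1%. With no level minimum it was 2.49 over the 631 members, against 0.97 over all 16554, and 73.1% were higher, against 52.6%. Over the 157 regions lower in GFP the median was then 0.31.

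As a description with no test, the GTS2 difference was larger where the GFP ratio was larger: over the members with an overlap, the median log2 difference was 2.30 at ratios of 1.5 to 2 (508 regions), 3.09 at 2 to 3 (99 regions) and 3.39 at 3 or more (24 regions). It was 1.72 on chromosome 1 and 2.58 elsewhere. These medians were taken with no level minimum, where the median over all 16554 shared distal regions was 0.97. DOX against DMSO gave smaller differences in both directions. In GTML3, 59 of the 284 were higher and 66 lower, against 12.4% and 16.8% of all, where the 2 DOX libraries were the shallowest of the table. In preGTS1, 26 were higher and 51 lower, against 6.04% and 12.1%. With limma the members' shares were 2.11% and 3.17% in GTML3, against 1.61% and 3.93% of all. In preGTS1 limma gave 0.704% and 3.87%, against 1.25% and 4.13%. With edgeR the shares were 0.352% and 5.63% in GTML3, against 0.427% and 6.49%. In preGTS1 edgeR gave 4.58% and 22.2%, against 6.85% and 19.6%. The members' excess past a fold was thus largely absent with either test.

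At Sox9, 6 of the 14 members overlapped the second table. Their median log2 difference of GTS2 from GTML3 under DMSO was 3.67, against 0.97 over all shared distal regions, both with no level minimum. The region 29.8 kb from the start read 53.1 and 50.7 CPM in GTS2, 1.72 and 3.59 in GTML3 under DMSO, 0 and 0 under DOX, 0.739 and 1.29 in preGTS1 under DMSO, 0.760 and 0.684 under DOX, and 0.250 and 0.959 in GTS1. The region 58.1 kb away read 51.5 and 57.3 CPM in GTS2, and no other condition exceeded 3.84 CPM. A region 53.3 kb away (chr11:112696389-112697201) differed from these: it read 14.8 and 13.0 CPM in GTS1, 1.69 and 8.45 in GTS2 and 3.19 to 4.76 in preGTS1. Sox9 regions open in the GFP and nonGFP cells were thus near the floor in GTML3 and open in GTS2, and 1 of them was highest in GTS1.

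Outside Sox9 the largest GTS2 differences were at regions nearly without reads in GTML3. Near 4933425H06Rik, GTS2 read 62.4 and 66.4 CPM (184 reads) and GTML3 under DMSO 0.572 and 0 CPM (1 read). Near Alox5ap, encoding the protein that presents arachidonic acid to 5-lipoxygenase, GTS2 read 46.4 and 62.1 CPM (158 reads) and GTML3 0 and 0.599 CPM (1 read). Near Pik3cg, a catalytic subunit of phosphoinositide 3-kinase, GTS2 read 44.7 and 51.3 CPM (138 reads) and GTML3 0.572 and 0 CPM (1 read). With 1 read in the control no fold is given. At these regions near Alox5ap and Pik3cg, every library of that table outside GTS2 was below the 5 CPM minimum. The regions near Alox5ap and Pik3cg thus passed it through GTS2 alone, so their differences are not independent of that filter.

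In the other direction, the member 71.0 kb from Gli2 (chr1:120878970-120879469) read 166 and 165 CPM in GTML3 under DMSO and 3.37 and 0 CPM in GTS2, a level 98.0-fold lower. In the first table the libraries of this member overlapped, with 8.37 and 5.38 CPM in GFP and 3.19 and 5.62 CPM in nonGFP. Regions near 4930548J01Rik and 1700025G04Rik were 21.7-fold and 21.5-fold lower in GTS2, the latter with 6.75 and 9.65 CPM against 176 and 177. Members could thus be strongly open in GTML3 and nearly closed in GTS2.

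In GTS1, the member 10.1 kb from Mir137 (chr3:118146603-118147105) read 63.6 and 65.7 CPM against 2.29 and 0.599 in GTML3 under DMSO, 44.8-fold higher. GTS2 read 3.37 and 3.02 CPM there, so the gain was in GTS1. No library outside GTS1 exceeded 3.37 CPM at this member. It passed the 5 CPM minimum through GTS1 alone, so its gain is not independent of that filter. Regions near Plekha7 (15 and 17.3 CPM against 0.572 and 0) and 4930465M20Rik (33.0 and 44.6 against 0 and 1.80) were also higher in GTS1. Regions near the hydrolase gene Nudt7 (23.3-fold), the reductase gene Cyb5r2 (16.8-fold) and the cadherin gene Cdh6 (16.5-fold) were lower.

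In preGTS1 under DMSO, regions near Nedd4l (13.0 and 15.4 CPM against 1.14 and 0 in GTML3), A130049A11Rik (12.4 and 10.7 against 1.14 and 0) and the neuropeptide receptor gene Npffr1 (13.9 and 16.0 against 0 and 1.80) were higher. The Cdh6 region was 18.4-fold lower there, a Lhcgr region 7.71-fold lower, and a Sh2d7 region had 2 reads against 8. Under DOX preGTS1 gained signal near Mtmr2, with 23.3 and 28.0 CPM against 4.29 and 5.02 (5.51-fold), and near Mir181a-1, with 26.6 and 29.2 CPM against 6.06 and 5.40 (4.87-fold). It lost signal near E130114P18Rik (5.95-fold) and Trhde (7.71-fold), a peptidase gene, while regions near Sh2d7 (10 reads against 2) and 4933433H22Rik (1 against 9) had few reads. The Mtmr2 region is also among the 12 members with the highest GFP ratio.

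In GTML3 the differences under DOX rested on few reads. The region near Dusp27 held 2 reads under DOX and 49 under DMSO, that near Sparc, a matrix glycoprotein gene, 1 and 21, and that near Cdk3-ps 3 and 37. The regions higher under DOX near Fnip2, Gpr126 and A130049A11Rik held 7, 7 and 8 reads against 1, 1 and 2. At this depth their folds are poorly fixed.

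Of the 1020 member genes, 629 were in the RNA table of the lines. That table was tested with limma and Benjamini-Hochberg adjustment over 15926 genes, and the 2 lines share no samples. Under DOX in GTML3, 224 member genes rose and 178 fell (35.6% and 28.3%), against 34.5% and 31.4% of all genes. In preGTS1, 275 rose and 189 fell (43.7% and 30%), against 34.5% and 33.7%. Their median log2 change in preGTS1 was 0.26, against 0.04 for all genes, 0.11 for genes of all tested distal regions and 0.45 for the 288 genes of regions lower in GFP, so a raised median was not particular to the member genes. No label says that the samples of a line came from separate cultures, so these p-values measure the spread between samples, which may be technical.

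Sox9 rose under DOX in both lines. In GTML3 its log2 CPM was 2.15, 1.63 and 1.54 under DOX and -0.90, -0.78 and 0.27 under DMSO, a change of 2.24 (SE 0.32, adjusted p = 1.71e-05, limma). In preGTS1 it was 3.81, 3.71 and 3.87 under DOX and 2.21, 1.13 and 1.66 under DMSO, a change of 2.13 (SE 0.32, adjusted p = 2.65e-05, limma). The groups did not overlap in either line.

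Of the 6 member genes of the astroglial list, in preGTS1 5 rose and none fell, and in GTML3 2 rose and 2 fell. Over the 34 measured genes of the whole list, 22 rose and 4 fell in preGTS1 and 12 rose and 8 fell in GTML3, and their summed level went from 1869-1958 to 6191-6276 CPM and from 902-962 to 1653-1714 CPM. Other cell type lists moved as well. Of 32 neuronal genes, 28 rose and 1 fell in preGTS1 and 21 rose and 6 fell in GTML3, with summed levels from 1072-1087 to 4632-5045 CPM and from 3166-3273 to 6422-6616 CPM. The sum of 9 measured endothelial and mural genes went from 13.6-14.1 to 90.3-94.9 CPM in preGTS1, and that of 15 photoreceptor genes from 957-983 to 2810-2991 CPM in GTML3. The part of these lists in the astroglial result was not tested. Tnc, Nfib, Slc1a3 and Slc4a4 are the rest of the list's member genes, named after their values were seen. Tnc read 8.22, 8.19 and 8.18 log2 CPM under DOX in preGTS1 and 5.07, 5.11 and 4.89 under DMSO, a change of 3.17 (SE 1.25, adjusted p = 0.0471, limma). In GTML3, Tnc was near the floor, with 5 reads under DOX and 5 under DMSO. Leaving out 1 library at a time took the preGTS1 adjusted p of Tnc to at most 0.0949.

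Nfib fell in GTML3, from 5.46, 5.65 and 5.51 to 3.92, 3.84 and 3.48 log2 CPM (change -1.80, SE 0.12, adjusted p = 2.75e-09, limma), and rose in preGTS1 by 0.96 (SE 0.12, adjusted p = 3.3e-06); the difference between these responses was 2.75 (adjusted p = 1.31e-08, limma). Slc1a3 likewise changed by -2.65 in GTML3 (adjusted p = 1.96e-12, limma) and by 1.04 in preGTS1 (adjusted p = 6.09e-08), a difference of 3.69 (adjusted p = 6.60e-11). Nfia rose by 1.28 in preGTS1 (SE 0.20, adjusted p = 7.80e-05, limma) and by 0.66 in GTML3 (SE 0.20, adjusted p = 0.0122, and up to 0.051 without 1 library). Slc4a4 passed in neither line with limma on log2 CPM (1.57, adjusted p = 0.105, and -1.27, adjusted p = 0.182). Cdh20 rose in preGTS1, from 1.26, 1.16 and 0.69 to 4.46, 4.25 and 4.25 log2 CPM (change 3.28, SE 0.63, adjusted p = 2.50e-04, limma), and its value in GTML3, -0.77, did not pass (adjusted p = 0.297). The difference between its responses was 4.05 (adjusted p = 0.00196, limma).

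**Figure D5:**
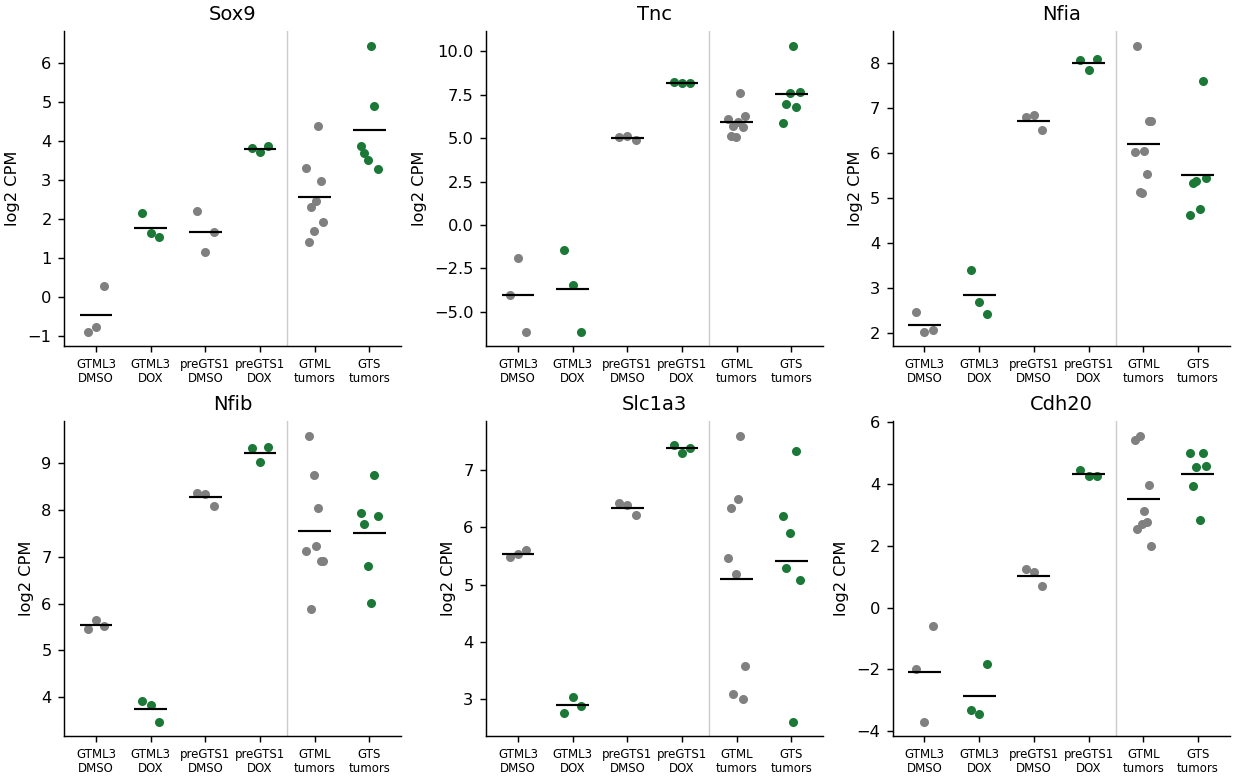
Log2 CPM of Sox9, Tnc, Nfia, Nfib, Slc1a3 and Cdh20 in each RNA sample of the 6 groups, with group means as lines. Sox9 is higher under DOX in both lines, while Nfib and Slc1a3 are lower under DOX in GTML3 and higher in preGTS1.

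Of the member genes with the largest falls under DOX, Mcm10, a replication initiation factor, fell by 3.73 in GTML3 and by 3.87 in preGTS1 on the log2 scale, and Exo1, an exonuclease, by 3.61 and 3.82. Gmnn, whose member region had a ratio of 5.75, read 1.80, 2.03 and 1.79 log2 CPM under DOX in preGTS1 and 5.69, 5.91 and 5.66 under DMSO (change -3.88, adjusted p = 1.67e-13, limma). Brip1, a helicase of DNA repair, fell by 3.78 in preGTS1. The lipoprotein lipase gene Lpl fell by 4.86 there, and Nav3, Tnfaip8 and the progenitor transcription factor gene Myb fell in GTML3 by 4.43, 3.66 and 3.44.

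Rising most in preGTS1 were the adhesion gene Lsamp (4.35), the claudin gene Cldn23 (4.21), Xkr4 (4.13), the formin gene Fmn1 (3.96) and Pid1 (3.75). In GTML3 they were the adaptor gene Shc3 (5.15), Pdzd2 (4.17), Pid1 (4.02), the calcium channel subunit gene Cacnb2 and Lsamp (3.74, adjusted p = 8.87e-10, limma). Cacnb2 held 15 reads under DOX and 1 under DMSO, and Shc3 and Pid1 each had 1 DMSO library at 0 reads. Without 1 library the GTML3 value of Pid1 ran from 2.31 to 5.04 and that of Shc3 from 3.45 to 6.30. Nav3 held 3 reads under DOX, with 1 library at 0, and 69 under DMSO, and its value ran from -5.25 to -3.45 without 1 library, so the changes of these 4 genes in GTML3 are poorly fixed. Dsel and Nabp1, among the genes with most members, changed little in preGTS1 (-0.31, adjusted p = 0.0339, and -0.39, adjusted p = 0.0409, limma), and leaving out 1 library took these to at most 0.109 and 0.146.

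In the tumors, 716 member genes were tested with limma, with the batch read from the column names in the model. The test called 3 member genes higher in GTS than in GTML and 0 lower, where 0.0509% and 0.00637% of all 15708 genes were called, and 161 of the 716 had an unadjusted p under 0.05, as did 3067 of the 15708. Cadps2, a regulator of dense-core vesicle release, ran from 6.65 through a median of 9.12 to 9.68 log2 CPM in 6 GTS tumors and from 2.53 through 3.29 to 4.43 in 8 GTML tumors (difference 5.15, SE 0.54, adjusted p = 0.00366; 5.04 and 5.29 within the 2 batches). Col19a1, a collagen gene, ran from 3.70 through 5.10 to 5.80 against -0.16 through 0.48 to 2.15 (difference 4.35, SE 0.53, adjusted p = 0.00935; 4.80 and 3.85 within batches). Crb1, a polarity gene, ran from 6.89 through 7.48 to 8.72 against 2.89 through 4.05 to 5.87 (difference 3.47, SE 0.47, adjusted p = 0.0174; 2.86 and 4.16 within batches). Neither group overlapped the other in any of the 3.

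Those calls depended on single tumors: without GTS replicate 1 the test called 1 member gene higher, without GTS replicate 2 it called 30 higher and 10 lower, and without GTS replicate 3 12 higher and 6 lower. Calls over all 15708 genes moved too. Without GTS replicate 2, 2.27% of all genes were higher and 1.46% lower, against 4.19% and 1.40% of member genes. Without GTS replicate 3 the shares were 1.38% and 0.656% of all genes, against 1.68% and 0.838% of member genes. Without 1 tumor the adjusted p of Col19a1 reached 0.0598 and that of Crb1 0.101. Leaving out GTML replicate 7 or 8, or GTS replicate 5, left 2 member genes called higher. Sox9 ran from 3.28 through 3.77 to 6.44 log2 CPM in GTS tumors and from 1.41 through 2.38 to 4.38 in GTML tumors, a difference of 1.73 (SE 0.64) that did not pass (adjusted p = 0.181, limma; 1.47 and 2.02 within batches). Tnc (1.60, adjusted p = 0.212) and Cdh20 (0.80, adjusted p = 0.511) did not pass. In bulk tumors, more cells of a type and more RNA per cell cannot be told apart, and the summed level of 20 microglia genes was 217-869 CPM in GTML and 386-1033 CPM in GTS tumors, whose part in these values was not tested.

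In the single-cell library, 607 of 4645 cells (13.1%) held at least 1 Sox9 UMI (a tag of 1 captured molecule). These cells were deeper, with a median of 22673 UMIs against 18148 in the other cells, and with 1 library there is no test. Summed CPM were compared for 577 member genes with at least 10 UMIs in each set of cells. Of these, 44 (7.63%) were at least 1.5-fold higher in the cells with a Sox9 UMI and 4 (0.693%) lower, against 3.57% and 1.61% of all 12673 genes. Among the genes of all tested distal regions 3.77% were higher, and among 273 genes of regions lower in GFP 2.93% were higher and 4.76% lower. Of the 83 measured genes with 2 or more members, 12 (14.5%) were higher.

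Tnc, at 7.52 CPM (95% exact Poisson interval 6.22 to 9.01, counting error only) in the cells with a Sox9 UMI and 3.3 CPM (2.92 to 3.72) in the others, was 2.28-fold higher. Nfia (13.7 and 14 CPM), Nfib (105 and 103 CPM), Dsel (4.89 and 5.41 CPM) and Nabp1 (4.89 and 4.72 CPM) were near even. Cdh20 had 5 and 8 UMIs, too few to compare. Among the other listed genes, Btg1 read 65.6 CPM (61.6 to 69.7) against 55.1 CPM (53.5 to 56.7), Neurod1 17.4 (15.3 to 19.6) against 22.2 (21.2 to 23.2), and Jun 166 (159 to 172) against 178 (175 to 181). Summed astroglial markers were 629 CPM in the cells with a Sox9 UMI and 576 CPM in the others. That list includes Sox9, which split the cells and gave 74.9 and 0 CPM of these sums, more than the gap between them. The sums thus show no astroglial excess apart from Sox9. Neuronal markers were at 1050.5 and 1197 CPM, and microglia markers, with 12 of 20 genes present, at 6.75 and 6.52 CPM.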

How the data were processed

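Members, gene lists and tests were chosen with earlier results of these data known. In both ATAC tables the authors deposited CPM for each region, with coordinates that fit mm9 and with the names and distances of neighbouring gene starts; 2 lines naming no region (1 in each table) were left out. In the RNA tables the authors deposited log2 CPM, where the plan had assumed CPM, and the values were tested without change. The single-cell table deposited by the authors holds UMI counts per gene and cell. Per the submitters' processing notes the tools were STAR 2.4.0, Bowtie2 2.2, Subread 1.5.2, Cell Ranger 3.3.0, Seurat 3.0, MACS2, edgeR and limma, the builds were mm9 and mm10, and their roles are not given in the sources used here. The CPM of the ATAC and line RNA tables gave whole reads for 100% of values within 0.1 read. Depth was 0.827 to 14.954 M reads per ATAC library and 10.861 to 24.672 M per line RNA library.

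Python 3.11.15 and R 4.3.3 were used. Duplicate ATAC libraries were averaged and a 2-fold difference was called. Regions of the ATAC tables were matched where they overlapped by at least 1 base. RNA was tested with limma 3.58.1 on log2 CPM, with the 4 line groups in 1 fit, after a filter that kept genes at 1 CPM or more in 6 or more tumors or 3 or more line samples. In the tumors the batch, read from the numbers in the column names, was a term, since the deposited values had batch means removed (largest batch coefficient 1.6e-14). The threshold was an adjusted p of 0.05 (Benjamini-Hochberg). Cells of the single-cell library were split by a Sox9 UMI, their UMI counts were summed, and genes with at least 10 UMIs in each set were compared. No doublet call was made.

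Named items followed a rule: the 12 members with the highest ratio, 1 per gene; the 8 genes with most members; the 6 members with the highest level; up to 3 members per gene list; up to 3 regions per direction in each comparison of the second ATAC table with duplicates that did not overlap; up to 5 genes per direction in each RNA comparison with groups that did not overlap. Not every item the rule names is reported here. Names outside it are said to be chosen after their values were seen. Alternatives are in the closing section; edgeR 4.0.16 on recovered ATAC reads and the counts without chromosome 1 were added after the data were seen.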

Additional observations from a re-analysis of the deposited data

Results flagged for a closer look

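Within the tumors, 26 groups of values of named genes were checked for a sample far from the others, and 2 held one, where chance gives about 1 group in 20. Nfia in the GTS tumors had a highest value of 7.60 log2 CPM, whose gap to the next was 0.719 of the range (limit 0.625). Slc4a4 in the GTML tumors had a lowest value of 1.75 log2 CPM, with a gap of 0.548 of the range (limit 0.526).

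Of 44 genes chosen by the naming rule or after their values were seen and measured in both lines, 24 responded to DOX differently in preGTS1 and GTML3. The test was limma's, of the difference between the responses, with Benjamini-Hochberg adjustment over all genes. The share of all genes that it called was not counted, and some of the 44 were named for a large change in a line. The count is therefore no result about the member genes. The values are preGTS1 minus GTML3 on the log2 scale. Of the astroglial list and the genes with most members, Slc1a3 differed by 3.69 (SE 0.13, adjusted p = 6.60e-11), Nfib by 2.75 (SE 0.17, adjusted p = 1.31e-08) and Cdh20 by 4.05 (SE 0.89, adjusted p = 0.00196). E130114P18Rik differed by 2.68 (SE 0.79, adjusted p = 0.0133), on 1 read in GTML3.

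Of the genes with the largest changes in a line, Nav3 differed by 6.61 (SE 0.93, adjusted p = 1.00e-04), on 3 reads under DOX in GTML3, and Cacnb2 by -4.49 (SE 0.82, adjusted p = 4.66e-04), on 15 reads under DOX and 1 under DMSO there. Lpl differed by -7.76, Tnfaip8 by 2.47, Pdzd2 by -1.92, Xkr4 by 1.72, Cldn23 by 1.51, Gmnn by -1.12 and Brip1 by -1.02, with adjusted p from 1.08e-06 (Lpl) to 0.0493 (Pdzd2).

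Of genes of the other lists, Notch2 differed by 1.95, Foxc1 by 1.82, Neurod1 by 1.67, Map2 by 1.38, Syt1 by -1.35, Rfx3 by -0.69, Acvr2a by 0.62, Jun by 0.57 and Btg1 by 0.44, with adjusted p from 5.19e-08 (Neurod1) to 0.0219 (Btg1). Mycn, by -1.27 (adjusted p = 3.24e-04), and Sparc, by 1.25 (adjusted p = 7.26e-05), were chosen after their values were seen.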

How the results depend on the processing

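The cause of each change below was not tested unless the setting itself shows it, as with fewer regions or samples. The number of members was 255 at a 10 CPM minimum, 10274 with none and 229 at a ratio of 2. It was 764 with limma, 776 with limma and a replicate block and 706 with edgeR as an added condition. Those limma and edgeR counts reuse the values that chose the members, over duplicates that may not be separate samples. They are sizes under other settings and give the members no support. Without 1 library the number was 1290 to 1745.

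Of members in the second ATAC table, the counts higher and lower are given in the order GTML3 DOX, preGTS1 DOX, preGTS1, GTS1 and GTS2. They are out of 284 members where no other number is named. The background, the shares of all shared distal regions in the same order, is out of 8907 where no other number is named. At 1.5-fold the counts were 92 and 90, 47 and 91, 112 and 67, 124 and 75, and 192 and 56. The background was 21.6% and 27.4%, 15.6% and 23.6%, 30.6% and 23.9%, 38.4% and 28.4%, and 46.5% and 26.5%. With limma, libraries taken as replicates, the counts were 6 and 9, 2 and 11, 34 and 10, 61 and 35, and 172 and 43. Background shares were 1.61% and 3.93%, 1.25% and 4.13%, 12.0% and 7.70%, 21.9% and 16.3%, and 38.4% and 18.8%. With the replicate block the counts were 6 and 10, 2 and 10, 34 and 9, 60 and 35, and 172 and 42. The background was 1.38% and 3.69%, 1.235% and 3.86%, 11.8% and 7.49%, 21.7% and 16.2%, and 38.3% and 18.6%. With edgeR they were 1 and 16, 13 and 63, 46 and 17, 70 and 35, and 173 and 38. At 10 CPM (116 regions) the counts were 19 and 21, 9 and 22, 32 and 10, 36 and 27, and 55 and 34. The background, over 4744, was 7.27% and 12.1%, 3.54% and 12.4%, 17.7% and 11.1%, 25.4% and 21.9%, and 29.1% and 23.7%. With no minimum (631 regions) they were 158 and 171, 97 and 98, 178 and 120, 244 and 114, and 461 and 73. Without chromosome 1, 30 of 233 were lower in GTS2 (12.9%), against 18.8% of all 8025. Without replicate 1 or 2 the GTML3 DOX counts were 57 to 74 and 80 to 81 (background 14.3% to 18.2% and 21.6% to 22.8%). Those of preGTS1 DOX were 33 to 38 and 59 to 60 (7.89% to 8.44% and 14.1% to 14.3%). Those of preGTS1 were 89 to 94 and 42 to 46 (24.1% to 25.2% and 13.7% to 14.4%). Those of GTS1 were 107 to 114 and 59 to 61 (30.7% to 31.4% and 20.4% to 22.1%). Those of GTS2 were 178 to 185 and 44 to 54 (40.9% to 41.1% and 20.1% to 21.3%). GTS2 had more members higher than lower in every one of these settings, while in preGTS1 under DOX the lower ones led throughout. All shared distal regions went the same way in each setting, so neither direction is particular to the members. In the main setting 3526 of the 8907 were higher and 1721 lower in GTS2, and 538 and 1082 in preGTS1 under DOX.

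With both named genes of each region, 410 of 1121 rose and 325 fell in GTML3, and 501 and 333 in preGTS1. In GTS tumors 5 of 1275 were higher. These were 36.6% and 29.0%, 44.7% and 29.7%, and 0.392%, against 34.5% and 31.4%, 34.5% and 33.7%, and 0.0509% of all genes. Median-centred values gave 5 of 716 higher in tumors (0.698%), against 0.121% of all genes. No batch term gave 39 higher and 16 lower (5.45% and 2.23%), against 3.92% and 1.96% of all genes. Without 1 tumor 1 to 30 were higher (0.140% to 4.19%) and 0 to 10 lower (at most 1.40%). All genes gave 0.0127% to 2.27% higher and at most 1.46% lower. Without 1 line sample 201 to 231 rose (32.0% to 36.7%) and 176 to 186 fell (28.0% to 29.6%) in GTML3. All genes gave 31.8% to 35.2% and 29.2% to 31.9% there. In preGTS1 254 to 277 rose (40.4% to 44.0%) and 174 to 191 fell (27.7% to 30.4%). The shares of all genes were 31.4% to 35.3% and 31.8% to 34.4%. The replicate numbers of the lines share only a number: correlations of deviations were -0.154 to 0.0684, and 1 of 6 correlated best with its own number. With the replicate block 222 rose and 178 fell in GTML3 (35.3% and 28.3%), against 33.6% and 30.5% of all genes. In preGTS1 269 rose and 182 fell (42.8% and 28.9%), against 33.6% and 33.0%. With that block Dsel (adjusted p = 0.0518) and Nabp1 (0.0619) in preGTS1 were no longer called by limma. Slc4a4 in preGTS1 passed with edgeR (adjusted p = 5.84e-04) and on log2(CPM + 1) (limma, adjusted p = 1.58e-05). No called difference of a named gene or region changed sign in any setting tried. Region motifs were not run.

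Depth limits the GTML3 DOX comparison, where 131 of the 631 shared members had 0 reads under DOX.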

Other observations

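In the single-cell library the 5 of the 577 compared member genes with the largest ratio between cells with and without a Sox9 UMI, chosen after their values were seen, differed by 3.54-fold to 24.3-fold, with no test possible over 1 library. Alox5ap read 5.34 CPM (95% exact Poisson interval 4.25 to 6.61) in cells with a Sox9 UMI and 0.424 CPM (0.293 to 0.592) in the others, 12.6-fold higher. Sh2d7, an SH2 domain protein gene, read 7.65 CPM (6.34 to 9.15) and 0.723 CPM (0.549 to 0.934), 10.6-fold higher. Pik3cg read 38.7 CPM (35.7 to 41.9) and 10.9 CPM (10.2 to 11.7). The matrix gene Sparc read 3.79 and 0.249 CPM and the cadherin gene Cdh6 4.24 and 0.174 CPM.

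Cells with a Sox9 UMI were deeper, so cells were thinned to 10000 UMIs each, which kept 582 and 3567 cells and left out 25 and 471. The share of cells with a Pik3cg UMI was then 27.0% and 9.11% (42.7% and 14.2% before) and with a Sh2d7 UMI 5.84% and 0.673% (10.4% and 1.29%). Microglia markers were at 6.75 and 6.52 CPM summed, with 12 of 20 genes present in the table. The part of free RNA in these shares was not tested.

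A region of Sh2d7 was more open in GTS2 than in GTML3, while the Cdh6 region of the second ATAC table was not (1.69 and 2.41 CPM against 34.9 and 22.1). Near Sh2d7, chr9:54377680-54378225 (mm9) read 17.6 and 16.3 CPM in GFP and 5.61 and 6.02 in nonGFP, and 63.3 and 83.9 CPM in GTS2 against 2.86 and 1.80 in GTML3 under DMSO. In the tumors, Alox5ap was 2.89 higher in GTS on the log2 scale with groups that did not overlap, which did not pass (SE 0.70, adjusted p = 0.0774, limma), nor did Pik3cg (2.87, adjusted p = 0.134) or Sh2d7 (1.86, adjusted p = 0.285). The summed microglia markers of the tumors, 217-869 CPM in GTML and 386-1033 CPM in GTS, stand beside these values, and their part in them was not tested.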
